A study of Mus musculus with 99 samples.

Results

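RYBP chromatin occupancy was described from 4 ChIP-seq peak lists, the libraries whose antibody label is Rybp, out of 52 ChIP-seq libraries read here (inputs left out) and 99 samples in the whole series. The lists held 2989 peaks in Parental cells given vehicle (-OHT), 61 in Parental cells given OHT (+OHT), 1177 in RING1B WT cells with OHT and 697 in RING1B I53S cells with OHT. Every cell was a mouse embryonic stem cell (mESC) of a shared line, ROSA26::creERT2 RING1A-/-;RING1B fl/fl, called Parental, so RING1A was absent in all groups, controls included. A tamoxifen-activated Cre expressed from the ROSA26 locus deletes RING1B, and +OHT means 0.5 µM 4-hydroxytamoxifen for 72 h. RING1B WT and RING1B I53S cells are puromycin-selected clones of this line that carry a Flag-HA-tagged RING1B transgene under the CAG promoter, either wild type or with the I53S change that abolishes its ubiquitin ligase activity. Each clone is a single line and its transgene is not under the endogenous promoter. No -OHT RYBP library of the RING1B WT or RING1B I53S cells was analysed here, so a difference between lines and an effect of OHT cannot be told apart in those clones. The title of the Parental +OHT library begins PARE72, where other Parental titles of 72 h begin PAR72 and those of vehicle PARETA. It was taken as +OHT because the 72 of the titles stands for the hours of OHT, and no other label gives its treatment.

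RYBP binds RING1B and ubiquitylated histone H2A, and together with its paralog YAF2 defines the variant forms of Polycomb repressive complex 1 (vPRC1). Canonical PRC1 (cPRC1) instead carries a CBX protein such as CBX7, which reads H3K27me3, and the subunit PCGF2 or BMI1. RING1A and RING1B are the E3 ligases that place H2AK119ub1. A variant complex, PCGF6-PRC1, reaches its sites through MGA-MAX, which reads the E-box, and through E2F6, and is known in mESCs for silencing germline genes.

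Before the values, sequences at several RYBP peaks are printed as examples. Every window, in all groups, was chosen to hold a motif named below, so these are not typical sites. Of the 300 bp windows at Parental -OHT peak centres, 28.0% held either motif and 2.01% held both. The first group was picked, after values were seen, for windows that hold both the E-box CACGTG and the E2F6-type TCCCGCC. Capitals mark either motif, read on either strand. Being held in Parental -OHT, RING1B WT +OHT and RING1B I53S +OHT cells was also a rule of this pick and is no result. None of the 4 had a peak in Parental +OHT.
Fbxo46, chr7:19118369-19118518, plus strand: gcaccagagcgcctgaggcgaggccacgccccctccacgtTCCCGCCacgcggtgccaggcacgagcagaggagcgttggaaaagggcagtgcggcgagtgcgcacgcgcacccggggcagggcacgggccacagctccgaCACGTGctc
Dhx40, chr11:86807759-86807908, plus strand: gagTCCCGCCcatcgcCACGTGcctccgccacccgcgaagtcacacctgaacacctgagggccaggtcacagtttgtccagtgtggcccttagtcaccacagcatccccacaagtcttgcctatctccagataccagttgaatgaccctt
Pik3ip1, chr11:3332186-3332335, plus strand: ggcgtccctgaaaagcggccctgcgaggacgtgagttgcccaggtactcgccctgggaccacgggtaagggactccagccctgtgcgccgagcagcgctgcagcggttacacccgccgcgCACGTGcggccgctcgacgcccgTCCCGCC
Tex12, chr9:50561332-50561481, plus strand: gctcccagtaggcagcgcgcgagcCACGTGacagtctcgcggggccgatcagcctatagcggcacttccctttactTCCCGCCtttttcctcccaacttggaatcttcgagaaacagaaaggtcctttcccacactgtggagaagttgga
Germline genes of the list used below come next. Tdrkh, a piRNA-pathway scaffold, and Sycp2, a component of the synaptonemal complex, show an E-box, and Ddx4, a germ cell RNA helicase, shows the E2F6-type letters.
Tdrkh, chr3:94412723-94412872, plus strand: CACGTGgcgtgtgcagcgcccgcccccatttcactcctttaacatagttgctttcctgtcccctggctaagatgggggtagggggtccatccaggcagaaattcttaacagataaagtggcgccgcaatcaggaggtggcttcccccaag
Ddx4, chr13:112652108-112652257, plus strand: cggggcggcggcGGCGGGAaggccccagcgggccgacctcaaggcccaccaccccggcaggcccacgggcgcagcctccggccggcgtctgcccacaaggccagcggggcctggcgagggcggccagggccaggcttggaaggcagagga
Sycp2, chr2:178407235-178407384, plus strand: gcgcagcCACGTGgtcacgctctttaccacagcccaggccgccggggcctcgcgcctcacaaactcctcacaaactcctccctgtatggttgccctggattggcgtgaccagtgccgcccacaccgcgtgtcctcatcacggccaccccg
Kbtbd6 and Ptpdc1 were picked among genes with PCGF2 held in Parental -OHT and RING1B WT +OHT but not in RING1B I53S +OHT cells. Neither had a Parental +OHT peak. Neurog1, a neuronal transcription factor, stands for the developmental list.
Kbtbd6, chr14:79452107-79452256, plus strand: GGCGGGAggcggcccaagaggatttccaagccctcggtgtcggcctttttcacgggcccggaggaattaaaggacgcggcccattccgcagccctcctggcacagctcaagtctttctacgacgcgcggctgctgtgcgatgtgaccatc
Ptpdc1, chr13:48625989-48626138, plus strand: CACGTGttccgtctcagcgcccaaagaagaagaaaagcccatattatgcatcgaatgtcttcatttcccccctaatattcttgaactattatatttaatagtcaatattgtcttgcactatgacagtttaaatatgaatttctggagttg
Neurog1, chr13:56251768-56251917, plus strand: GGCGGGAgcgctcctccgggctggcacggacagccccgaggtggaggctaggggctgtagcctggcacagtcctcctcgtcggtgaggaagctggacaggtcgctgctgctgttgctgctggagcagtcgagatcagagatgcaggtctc
These are GRCm38 (mm10) reference sequences, and a match does not show that a factor bound the letters. By GENCODE M21, the windows at Fbxo46, Dhx40 and Ptpdc1 lay outside any annotated gene body, those at Ddx4 and Sycp2 in introns of those genes, that at Tex12 in an intron of its neighbour Il18, that at Tdrkh in an exon of the noncoding 1700040D17Rik, those at Kbtbd6 and Neurog1 in coding exon sequence, and that at Pik3ip1 in an exon that is partly coding. The middle of each window was 82 to 475 bp from the nearest start of the named gene, except 1415 bp at Fbxo46.

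The Parental +OHT list was the shortest and the RING1B WT +OHT list the longest of the 3 lists with OHT. Relative to the Parental -OHT number, Parental +OHT cells held 2.04%, RING1B WT +OHT cells 39.4% and RING1B I53S +OHT cells 23.3%. The covered genome was 2.92, 0.0581, 1.10 and 0.565 Mb in the same order. Each condition has 1 library, so no test was possible. A peak number rises with sequencing depth, which is unknown here, so these numbers order the lists and are not levels.

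Peak shape moved less than peak number. The median width was 834 bp in Parental -OHT, 615 bp in Parental +OHT, 802 bp in RING1B WT +OHT and 677 bp in RING1B I53S +OHT cells. Scores are -log10 p from MACS2 with a floor of 10, and their medians were 13.8, 13.6, 12.8 and 12.4. Peaks with a score of at least 20 numbered 531, 18, 156 and 81. So 531 of 2989, 18 of 61, 156 of 1177 and 81 of 697 peaks scored 20 or more. Peaks that overlap one of 4 input libraries, from MTF2 knockout derivatives, numbered 10, 17, 16 and 17, which is 27.9% of the Parental +OHT list and under 2.5% of the others.

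**Figure D1:**
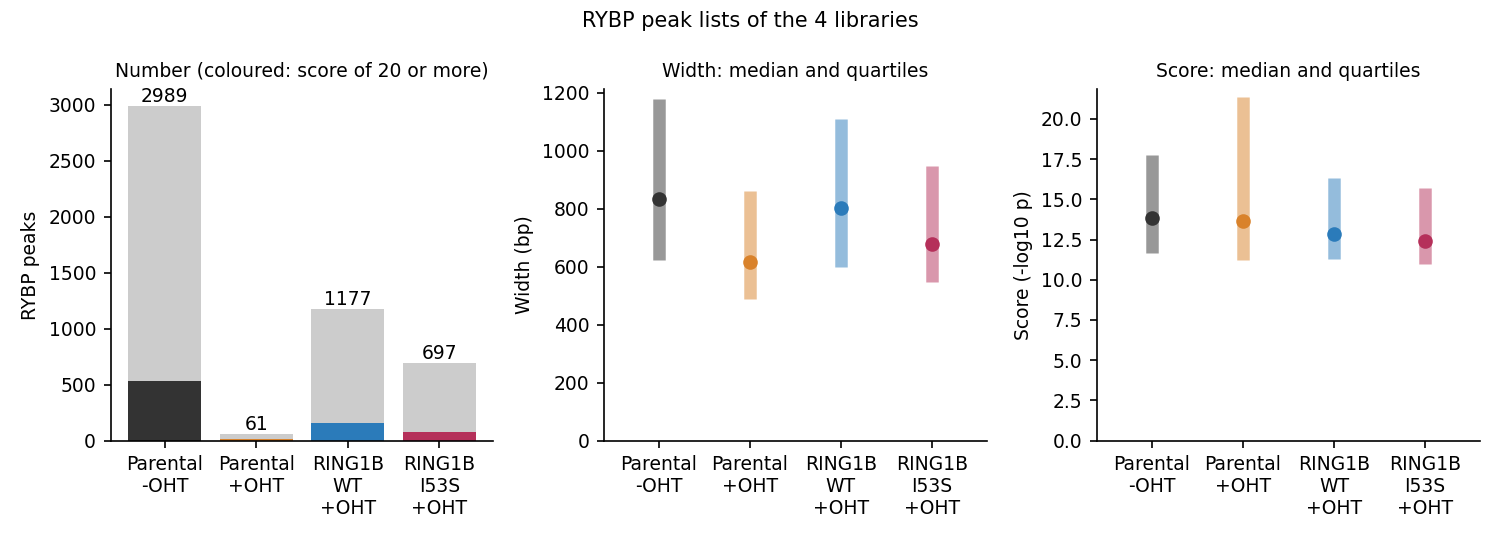
Number of RYBP peaks (left), peak width in bp (middle) and score as -log10 p (right) for the 4 libraries, with points for medians, bars for quartiles and colour in the left panel for scores of at least 20. The number runs from 2989 in Parental -OHT to 61 in Parental +OHT, while median widths stay between 615 and 834 bp.

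Of the 2989 Parental -OHT peaks, 946 overlapped a RING1B WT +OHT peak (31.6%, 95% Wilson interval 30.01 to 33.3), 544 a RING1B I53S +OHT peak (18.2%, 16.9 to 19.6) and 35 a Parental +OHT peak (1.17%, 0.843 to 1.62). The intervals cover counting over peaks and nothing of the spread between libraries. In the other direction, 80.4% of RING1B WT peaks and 78.2% of RING1B I53S peaks lay on a Parental -OHT peak, so the shorter lists were mostly drawn from the longer. RING1B I53S peaks lay on RING1B WT peaks in 53.7% of cases.

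Merging the lists gave 3360 loci. Parental -OHT alone held 1856 (55.2%), Parental -OHT with RING1B WT 581, and those 2 libraries with RING1B I53S 330. RING1B I53S joined Parental -OHT without RING1B WT at 181 loci. All 4 libraries shared 26 loci, of which 9 overlapped an input peak.

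High-scoring sites were found again most often. In the lowest tercile of Parental -OHT scores, RING1B WT held 12.2% and RING1B I53S 7.72%, in the middle tercile 22.2% and 11.4%, and in the highest tercile 60.5% and 35.4%. Peaks held in RING1B WT cells had a median Parental -OHT score of 18.5 and those not held 12.8.

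PCGF2, the subunit of cPRC1, lay on 58.1% of these peaks. Of 1738 peaks with a Parental -OHT PCGF2 peak, RING1B WT held 39.1% (36.9 to 41.4) and RING1B I53S 18.9% (17.2 to 20.8). Of 1251 without one, RING1B WT held 21.3% (19.1 to 23.6) and RING1B I53S 17.2% (15.2 to 19.4). Within the highest tercile RING1B WT held 67.3% with PCGF2 and 50.1% without, and RING1B I53S 37.7% and 32.0%. In the lowest tercile the RING1B WT shares were 17.1% with PCGF2 and 6.12% without, against 6.83% and 8.84% for RING1B I53S. The share with PCGF2 was higher than that without in every tercile for RING1B WT, and for RING1B I53S it was higher in the highest tercile alone. The RING1B I53S intervals with and without PCGF2 overlapped in every tercile, at 33.9 to 41.6 and 27.5 to 36.7 in the highest. With the 61 top-scoring peaks of each list, RING1B I53S had 42.9% with PCGF2 and 50.0% without, and RING1B WT 71.4% and 65.4%. These shares rest on few peaks, so the order by PCGF2 is not settled for RING1B I53S. With RING1B in place of PCGF2, RING1B WT held 41.97% of peaks with it and 11.8% without, and RING1B I53S 20.99% and 12.8%.

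**Figure D2:**
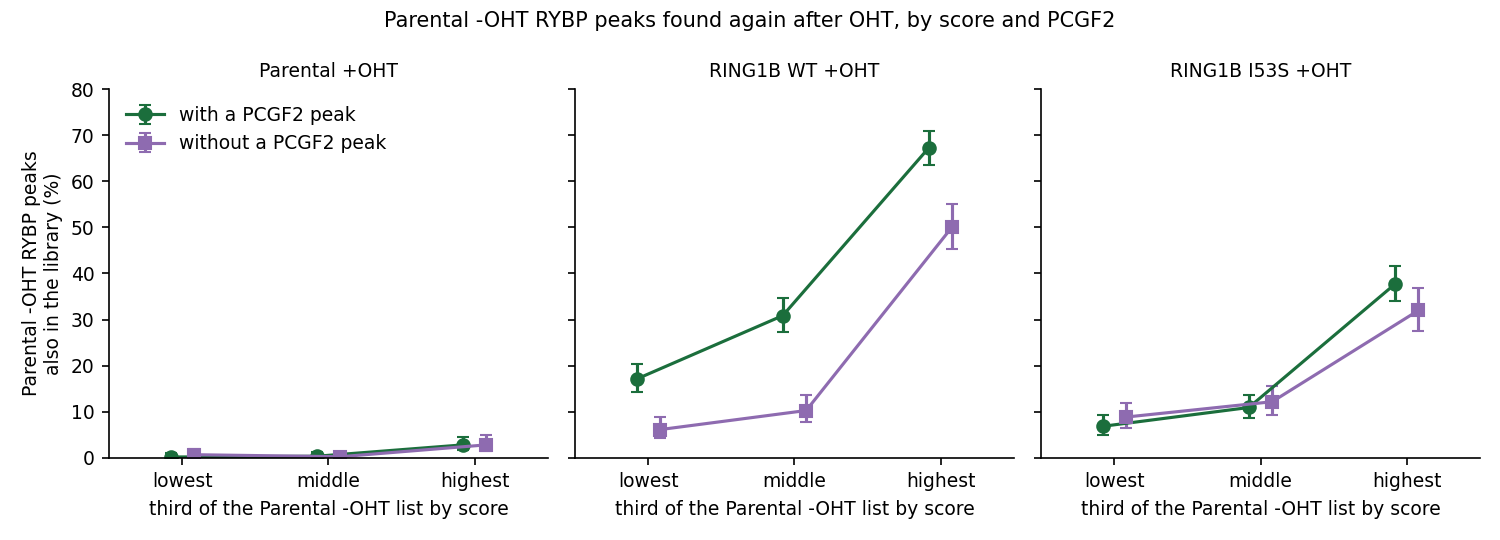
Percent of Parental -OHT RYBP peaks that overlap a peak of each +OHT library (y) by tercile of Parental -OHT score (x), with and without a Parental -OHT PCGF2 peak, and 95% Wilson intervals. RING1B WT reaches 67.3% with PCGF2 and 50.1% without in the highest tercile, RING1B I53S 37.7% and 32.0%.

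PCGF6, the subunit of the E-box-reading variant complex, covered most RYBP sites. A PCGF6 peak lay on 2555 of the 2989 (85.5%). PCGF6 was not alone in this, as MTF2, a PRC2 accessory subunit, lay on 2793 (93.4%). The whole Parental -OHT lists held 7882 PCGF6 and 24485 MTF2 peaks. Those with PCGF6 were held at 35.6% in RING1B WT and 20.4% in RING1B I53S, and the 434 without it at 8.53% and 5.53%. Peaks with PCGF6 and without PCGF2 numbered 1046, of which RING1B WT held 24.6% (22.1 to 27.3) and RING1B I53S 19.6% (17.3 to 22.1). Peaks with PCGF6 had a median score of 14.4 against 11.99 for those without, so score moved with this split.

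At the 2989 Parental -OHT RYBP loci, RING1B, PCGF2 and CBX7 peaks lay at under 1.5% of the loci in Parental +OHT cells, and PCGF6, SUZ12 and H3K27me3 peaks at over 40%. RING1B peaks lay at 65.8% of the loci in Parental -OHT, 0.903% in Parental +OHT, 50.7% in RING1B WT and 6.62% in RING1B I53S cells. PCGF2 shares were 58.1%, 0.970%, 46.7% and 10.8%, and those of CBX7 56.3%, 1.37%, 37.3% and 0.535%. PCGF6 shares were 85.5%, 56.7%, 87.1% and 40.3%. SUZ12, the core PRC2 subunit, lay at 76.1%, 58.0%, 67.4% and 39.4%, and the PRC2 product H3K27me3 at 64.6%, 41.5%, 56.98% and 23.9%.

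H2AK119ub1 peaks lay at 1800 of the 2989 loci (60.2%) in Parental -OHT and also at 1800 in Parental +OHT cells, of which 1469 loci were in both. RING1B WT had 66.0% and RING1B I53S 38.9%. A peak says that signal stood above the background of its own library and gives no amount across libraries, and the whole H2AK119ub1 lists held 12648, 5450, 15830 and 3120 peaks. A peak list cannot show how much of the mark was left.

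**Figure D3:**
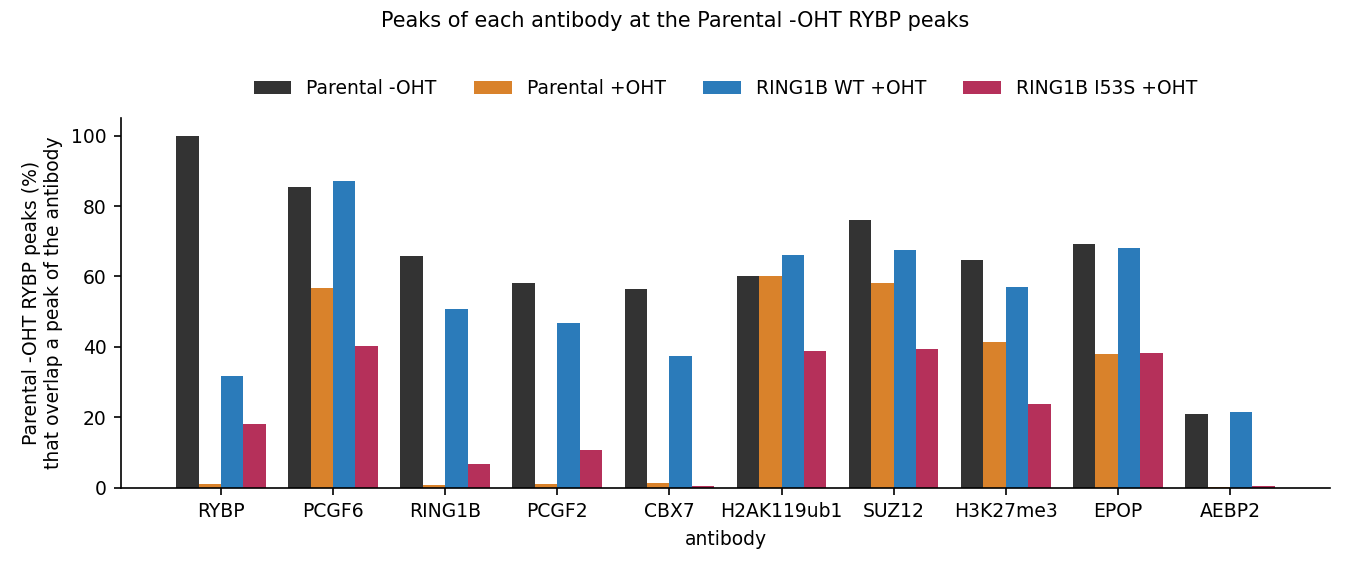
Percent of the 2989 Parental -OHT RYBP peaks (y) that overlap a peak of each antibody (x) in the 4 conditions, 1 library per bar. In Parental +OHT the RYBP bar is at 1.17% and the PCGF6 bar at 56.7%.

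In the cells themselves, RYBP peaks of RING1B WT carried PCGF6 in 94.2%, RING1B in 68.7% and PCGF2 in 60.4% of cases. RYBP peaks of RING1B I53S cells carried PCGF6 in 63.0%, RING1B in 18.1%, PCGF2 in 19.7% and CBX7 in 2.44%. The I53S lists of these antibodies were themselves shorter, with 2377 PCGF6, 1287 RING1B, 696 PCGF2 and 32 CBX7 peaks. At 3941 RING1B peaks of RING1B WT +OHT cells, RYBP lay on 1440 (36.5%) in Parental -OHT, 23 in Parental +OHT, 780 (19.8%) in RING1B WT and 399 (10.1%) in RING1B I53S cells.

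Chromosome 11 has 5.43% of annotated gene names, but 24.4% of Parental -OHT, 47.5% of Parental +OHT, 29.2% of RING1B WT and 39.0% of RING1B I53S peaks. RING1B had 12.5% of its Parental -OHT peaks and 17.965% of its RING1B WT peaks there. Its shares were 82.6% of the 690 Parental +OHT peaks and 66.8% of the RING1B I53S peaks. Peaks of the other antibodies were also above 5.43% in all 4 conditions. In Parental -OHT, for example, PCGF2 had 9.58%, PCGF6 14.8% and H3K27me3 18.1%. A share above that of gene names was thus not particular to RYBP and RING1B. RNA counts from chromosome 11 made up 11.3 to 11.8% in all 12 RNA-seq libraries, from 8.10% of the genes tested. Off chromosome 11, RING1B WT held 28.8% of Parental -OHT peaks, RING1B I53S 14.6% and Parental +OHT 0.708%, and on it 40.5%, 29.5% and 2.61%. Without chromosome 11, peaks with PCGF2 were held at 34.2% in RING1B WT and 15.6% in RING1B I53S.

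RYBP peaks were mostly at promoters, here the 2.5 kb on each side of an annotated start. The promoter share was 86.0% in Parental -OHT, 85.2% in Parental +OHT, 86.6% in RING1B WT and 90.7% in RING1B I53S cells, with a median distance from start site to peak centre of 244, 215, 297 and 202 bp. Genes with a promoter peak numbered 3243, 73, 1288 and 859. Among protein-coding genes 2501 of 21923 (11.4%) had one in Parental -OHT cells. A promoter peak was present in Parental -OHT and RING1B WT alone at 637 genes, in every library but Parental +OHT at 405, in Parental -OHT and RING1B I53S alone at 234, and in all 4 libraries at 44.

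Of the strongest named sites, that near Gm26917 and that at Grb10 had a peak in every library. A peak at chr17:39843098-39846866 near Gm26917, Gm42418, AY036118 and CT010467.1, which carry sequence like ribosomal RNA, scored 127 in Parental -OHT, 173 in Parental +OHT, 108 in RING1B WT and 102 in RING1B I53S cells. Reads there come from repeated sequence, so its score is uncertain. The next, at Fbxo46, which encodes an F-box protein, and at Gm4969, scored 119.3 in Parental -OHT, 85.6 in RING1B WT and 79.0 in RING1B I53S cells, with no Parental +OHT peak. Grb10, an imprinted adaptor of insulin signalling, scored 111, 18.8, 92.3 and 34.2. Mepce, the 7SK RNA capping enzyme, and Zcwpw1, a meiotic reader of histone methylation, share a peak of 98.9, 64.7 and 32.3 in Parental -OHT, RING1B WT and RING1B I53S cells. Tex19.1, a germ cell gene that restrains retrotransposons, scored 92.8, 46.0 and 17.7.

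Some sites were held in Parental -OHT and RING1B WT cells and in neither of the others. Gpat2, a glycerol-3-phosphate acyltransferase, scored 70.4 and 19.7, Kbtbd6, a CUL3 adaptor, 67.7 and 51.3, Ptpdc1, a protein phosphatase, 58.4 and 18.7, Plekhg4, a guanine nucleotide exchange factor, 53.7 and 27.3, and Ptprs, a receptor phosphatase, 53.1 and 30.6. Kbtbd6, Ptpdc1 and Ptprs peaks carry PCGF2, and those of Gpat2 and Plekhg4 do not.

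Germline and meiosis genes had the largest share held by RYBP among the 8 lists. Of 30, 22 (73.3%) had a promoter peak in Parental -OHT cells, and 6 carried PCGF2. A peak lay at 21 in RING1B WT, 13 in RING1B I53S and 1, Ddx4, in Parental +OHT cells. The 21 include Sycp3, Tdrd6 and Tex14, which had no Parental -OHT peak. All protein-coding genes gave 11.4% in Parental -OHT, 4.57% in RING1B WT, 3.09% in RING1B I53S and 0.255% in Parental +OHT cells. Ddx4 scored 58.8, 15.8, 41.3 and 31.2 in the order Parental -OHT, Parental +OHT, RING1B WT and RING1B I53S. Tdrkh scored 76.1, 39.5 and 28.4 and Stag3, a meiotic cohesin subunit, 73.8, 39.0 and 29.9 in Parental -OHT, RING1B WT and RING1B I53S. Of 40 developmental regulators, all had PCGF2 in Parental -OHT cells and 22 (55.0%) had RYBP there. RYBP lay at 14 in RING1B WT, 7 in RING1B I53S and 0 in Parental +OHT cells. Dlx5, En1 and Irx3 among the 14, and Foxa2 among the 7, had no Parental -OHT peak. Neurog1 scored 29.6, 23.0 and 21.2 in Parental -OHT, RING1B WT and RING1B I53S. Pax6, an eye and brain regulator, had a peak of 11.7 in Parental -OHT and a separate, non-overlapping peak of 18.7 in RING1B WT. It had none in RING1B I53S.

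Some genes of the Polycomb machinery also had RYBP promoter peaks. Of the 4 genes listed as PRC1 core and RYBP paralogs, 0 had one in any library. Among 22 variant PRC1 genes, Pcgf5, Auts2, E2f6, Mga and Hdac2 had a peak in Parental -OHT cells (22.7%, beside 11.4% of all protein-coding genes). Hdac2, a histone deacetylase, scored 79.2, 64.3 and 36.1 in Parental -OHT, RING1B WT and RING1B I53S, E2f6 44.4, 24.7 and 11.7, and Mga 38.2, 13.9 and 20.9. Among cPRC1 genes, Cbx2 and Cbx8, which encode readers of H3K27me3, had a peak in Parental -OHT cells, Cbx8 also in RING1B WT and neither in RING1B I53S cells. PRC2 genes had 4 of 12 in Parental -OHT (33.3%, beside the same 11.4%). Of 18 pluripotency factors, Dppa3 alone, and of 15 housekeeping genes, B2m alone, had a peak in Parental -OHT.

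The E-box and the E2F6-type letters lay in larger shares of the windows at Parental -OHT, RING1B WT and RING1B I53S peaks than of promoter windows. The E-box CACGTG lay in 13.4% of the 300 bp windows at Parental -OHT peak centres (12.2 to 14.7), 6.56% in Parental +OHT (2.58 to 15.7), 14.95% in RING1B WT (13.0 to 17.1) and 19.1% in RING1B I53S (16.3 to 22.2), against 7.15% of 32851 promoter windows. TCCCGCC lay in 16.6%, 13.1%, 17.4% and 18.9%, against 11.3%. Windows at Parental -OHT peaks held a median of 25 CG pairs and promoters 7, and both motifs hold CG, so this comparison is not matched. The E-box overlaps the USF motif GTCACGTG, found in 2.64% of Parental -OHT, 1.64% of Parental +OHT, 2.21% of RING1B WT and 4.02% of RING1B I53S windows and 2.25% of promoters. The YY1 motif AAGATGGC lay in 1.30%, 3.28%, 1.19% and 2.01%, against 2.75% of promoters, so it was less frequent than in promoters except in Parental +OHT. Parental -OHT peaks without PCGF2 but with PCGF6 held the E-box in 20.0%, those with PCGF2 in 10.7% and those with neither in 2.93%. PCGF6 peaks held it in 18.03% and PCGF2 peaks in 5.83%.

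**Figure D4:**
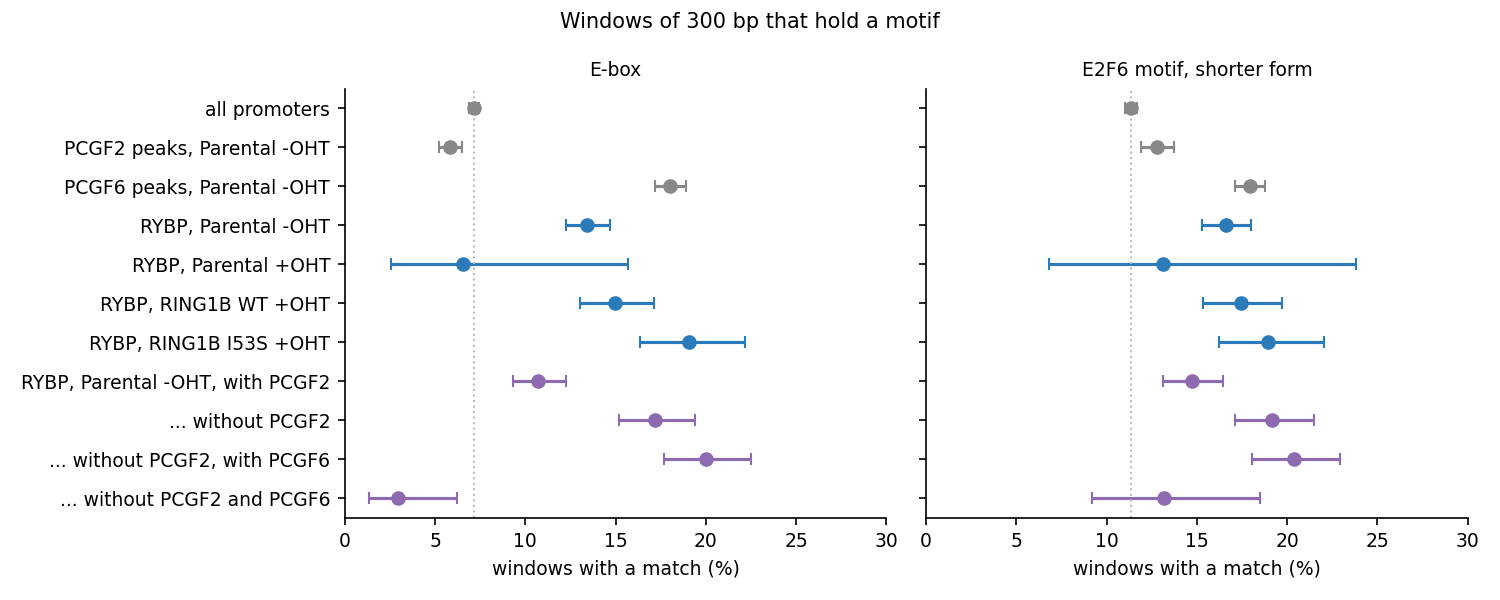
Percent of 300 bp windows (x) that hold CACGTG (left) or TCCCGCC (right), both strands, for promoters, PCGF2 and PCGF6 peaks and RYBP peaks (y), with 95% Wilson intervals and a dotted line at all promoters. The E-box reaches 20.0% at RYBP peaks with PCGF6 and without PCGF2 and 2.93% at those with neither.

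RNA was set beside the peaks from 12 libraries, 2 for each of the 3 lines with and without OHT, with totals from 8140106 to 12743460 counts. Nothing in the labels says that the 2 came from separate cultures, so p-values measure the spread between these samples. Rnf2, the gene of RING1B, had 198 and 257 cpm (counts scaled to the TMM library size) in Parental -OHT and 144 and 167 in Parental +OHT, a log2 fold change of -0.55 ± 0.20 (SE, edgeR quasi-likelihood adjusted p = 0.035) that was under the fold needed for a call. The values are per gene and not per exon, so they do not check the deletion. Rybp had 48.1 and 57.7 cpm in Parental -OHT and 33.2 and 43.6 in Parental +OHT, a log2 fold change of -0.46 ± 0.21 (SE, edgeR quasi-likelihood adjusted p = 0.094). Its paralog Yaf2 changed by 0.48 ± 0.27 (adjusted p = 0.19). Neither passed the test.

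Genes with a Parental -OHT RYBP promoter peak were called higher with OHT at a larger share than all genes in each line. Calls were few in RING1B WT cells. Of 3243 such genes, 2456 passed the filter on low counts. Calls required a log2 fold change of 1.5 or more in size, with the adjusted p below 0.05. In Parental cells 793 (32.3%) were called higher and 19 lower, where all genes gave 15.1% higher and 1.83% lower. In RING1B I53S cells 727 (29.6%) were higher and 8 lower, against 12.8% and 1.04% of all genes. In RING1B WT cells 78 (3.18%) were higher and 1 lower, against 1.34% and 0.0386% of all genes. Leaving out RING1B WT -OHT replicate 2 gave 8 higher and 0 lower, and leaving out its +OHT replicate 2 gave 7 and 0, while leaving out its +OHT replicate 1 gave 4 lower. The median log2 fold change of these genes was 0.70 in Parental, 0.63 in RING1B I53S and 0.24 in RING1B WT cells, beside medians for all genes of 0.03, 0.01 and 0.02. Genes low without OHT can pass the filter only through the +OHT libraries. Among those with at least 10 counts in each -OHT library of the line, 311 of 1798 (17.3%) were higher in Parental and 316 of 1892 (16.7%) in RING1B I53S cells, beside 6.63% and 6.08% of all genes of that kind. In RING1B WT cells 29 of 1764 such members (1.64%) were higher, beside 0.599% of all genes of that kind. Of the members called higher, 650 were shared by Parental and RING1B I53S cells, 82.0% of the first and 89.4% of the second. Over all tested genes 2020 were shared, 73.5% of the first and 87.0% of the second. Of tested genes with a Parental -OHT RYBP promoter peak, 649 of 1886 off chromosome 11 (34.4%) and 144 of 570 on it (25.3%) were called higher with OHT in Parental cells, where all genes gave 15.1%. In RING1B I53S cells these were 599 (31.8%) and 128 (22.5%), where all genes gave 12.8%.

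Most of the called genes carried PCGF2 as well. With RYBP and PCGF2, 695 of 1319 (52.7%) were higher in Parental, 653 in RING1B I53S and 65 in RING1B WT cells, with a median level of 0.510 RPKM in Parental -OHT cells. With RYBP and no PCGF2, 98 of 1137 (8.62%), 74 and 13 were higher, and the median level was 5.74 RPKM. All genes gave 15.1%, 12.8% and 1.34% in the same order. Of the genes with PCGF2, 62.1% were under 1 RPKM in Parental -OHT cells, so many could pass the filter only through the +OHT libraries. Among those with at least 10 counts in each -OHT library of the line, 259 of 781 (33.2%) were higher in Parental and 270 of 842 (32.1%) in RING1B I53S cells, and without PCGF2 52 of 1017 (5.11%) and 46 of 1050 (4.38%), beside the 6.63% and 6.08% of all genes of that kind.

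**Figure D5:**
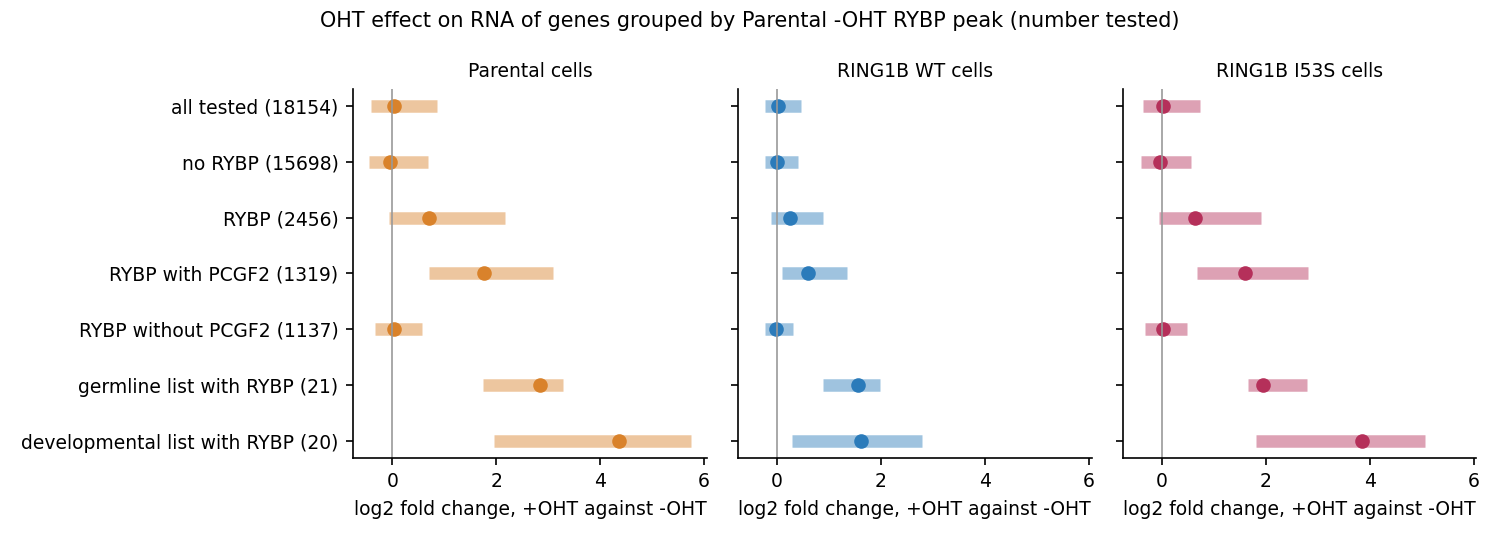
Log2 fold change with OHT (x) in the 3 lines for genes grouped by Parental -OHT RYBP promoter peak (y, number tested in brackets), with points for medians and bars for quartiles. RYBP genes with PCGF2, of which 695 of 1319 were called higher in Parental cells, lie to the right of those without PCGF2 in Parental and RING1B I53S cells.

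Of 21 tested germline genes with RYBP, 18 were called higher in Parental, 16 in RING1B I53S and 8 in RING1B WT cells. Their medians were 2.85, 1.94 and 1.56, and all genes gave 15.1%, 12.8% and 1.34% higher. The 29 tested genes of the whole germline list, with or without RYBP, gave 23, 20 and 10 higher, with medians of 2.58, 1.87 and 1.33. Tdrd1, a piRNA-pathway protein, had 0.163 and 0.742 cpm in Parental -OHT and 27.8 and 25.3 in Parental +OHT, 0.963 and 0.658 in RING1B WT -OHT and 2.62 and 5.23 with OHT, and 1.159 and 1.06 in RING1B I53S -OHT and 19.8 and 25.1 with OHT. In none of the 3 lines did its -OHT and +OHT libraries overlap. Its log2 fold changes were 6.01 ± 0.48 (edgeR adjusted p = 3.71e-08), 2.24 ± 0.48 (adjusted p = 0.018) and 4.32 ± 0.40 (adjusted p = 5.27e-07). Of 20 tested developmental genes with RYBP, 13, 14 and 2 were higher in Parental, RING1B I53S and RING1B WT cells, with medians of 4.37, 3.85 and 1.61, beside the same shares of all genes. Of the 20, 90% were under 1 RPKM in Parental -OHT cells, so most could pass the filter only through the +OHT libraries. The 36 tested genes of the whole developmental list, with or without RYBP, gave 27, 28 and 6 higher. Their medians were 4.79, 4.14 and 1.58, so the rise was not particular to the genes with RYBP. Foxd3, a pluripotency and neural crest factor named here after its values were seen, was called lower in RING1B I53S cells (-2.08 ± 0.53, edgeR adjusted p = 0.0064).

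The members of lowest adjusted p that rose in Parental cells were Ccnd2, Crabp1 and Hand1, and those that fell were Kdm3a, Vim and Socs2. Ccnd2, cyclin D2, had 2.44 and 4.33 cpm in Parental -OHT, 195 and 166 in Parental +OHT, 13.4 and 23.7 in RING1B WT +OHT and 86.3 and 86.5 in RING1B I53S +OHT cells. Its log2 fold changes were 5.78 ± 0.34 in Parental (edgeR adjusted p = 1.12e-09), 2.23 ± 0.33 in RING1B WT (adjusted p = 0.0019) and, for RING1B I53S, 4.99 ± 0.33 (adjusted p = 9.17e-09). Crabp1, a retinoic acid-binding protein, changed by 2.96 and Hand1, a trophoblast and heart factor, by 6.33 in Parental cells. Kdm3a, an H3K9 demethylase, fell by 1.86, Vim, vimentin, by 1.57 and Socs2, a cytokine signalling suppressor, by 1.62 in Parental cells.

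By the edgeR interaction test, the response of RYBP genes to OHT in RING1B WT cells exceeded that in Parental cells at 2 genes and was below it at 97, where all genes gave 0.435% and 1.1%. The 97 became 54, 43, 35, 41 and 22 without Parental -OHT replicate 2, Parental +OHT replicate 1, Parental +OHT replicate 2, RING1B WT -OHT replicate 1 or RING1B WT +OHT replicate 1, and the 2 became 0 when Parental +OHT replicate 2 was left out, and 1 when Parental -OHT replicate 1 or any 1 of the 4 RING1B WT libraries was. Between RING1B I53S and RING1B WT it differed at 18 (higher) and 0 (lower), against 0.209% and 0.138%. The 18 became 2, 1 and 7 without RING1B WT -OHT replicate 1, RING1B WT +OHT replicate 1 or RING1B I53S -OHT replicate 2. Between RING1B I53S and Parental it differed at 0 genes by edgeR in either direction, members or all (0%), and at 0 by DESeq2, with 92 of 2456 members and 488 of 18154 genes at an unadjusted p under 0.05. A missed threshold does not show that those 2 lines responded alike.

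Markers of ESCs and of other cell types differed between the same libraries. The summed level of 8 ESC markers was 4189 to 5598 cpm across the -OHT libraries and 1655 to 1790 in Parental +OHT, 2015 to 2190 in RING1B I53S +OHT and 3934 to 3948 in RING1B WT +OHT. The 6 trophoblast markers summed to 60.6 to 119.1 cpm without OHT and to 520 to 532 in Parental, 370 to 446 in RING1B I53S and 123 to 157 in RING1B WT cells with it. The 4 endoderm markers summed to 1.32 to 2.89 cpm without OHT and to 18.9 to 20.6, 15.1 to 18.6 and 3.22 to 6.23 with it, in the same order. The 3 neural markers summed to 0.48 to 1.93 cpm and to 8.58 to 11.7, 7.32 to 8.52 and 1.51 to 3.24, and the 4 fibroblast feeder markers to 16.2 to 25.5 cpm and to 66.1 to 68.8, 59.3 to 71.6 and 33.0 to 34.3. Sums rest on their most abundant markers, and single markers did not all follow them. Klf4, an ESC marker, ran from 80.4 to 102 cpm without OHT and from 67.8 to 144 over all libraries. The highest trophoblast values were 226 cpm for Esx1, 179 for Krt18, 111 for Krt8, 20.9 for Hand1, 5.65 for Cdx2 and 0.682 for Elf5. Cdx2 and Elf5 (trophoblast), Gata6, Sox17 and Foxa2 (endoderm), Sox1 and Neurog2 (neural) and Col1a2 (feeder) were at 0 in at least 1 -OHT library. The part of these markers in the RNA results was not tested. In bulk RNA fewer cells of a type and less RNA per cell cannot be told apart.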

How the data were processed

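The authors aligned ChIP-seq reads to mm10 with Bowtie 1.2.2, kept unique pairs, removed duplicates and called peaks per library with MACS2 2.1.1 at a -log10 p of at least 10. The deposited score of each peak is its -log10 p, and numbers missing from the peak names show that the lists were filtered after calling. Read depth, signal and spike-in scaling were not analysed here. RNA-seq values are raw counts per gene that the authors made with STAR 2.7 and featureCounts without regard to strand, so a gene and its antisense partner cannot be told apart. Tables of the authors' own fold changes and normalized values were not used.

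Overlap was at least 1 bp (Python 3.11.15, pysam 0.24.0). Peaks were joined to GENCODE M21 start sites, with promoters of 2.5 kb to either side. Motif windows were 300 bp of GRCm38, set beside 32851 RefSeq promoter windows of 250 bases before to 50 after the start. Shares carry 95% Wilson intervals. Counts were fitted over all 12 libraries with edgeR 4.0.16 (quasi-likelihood, TMM, filterByExpr), 18154 of 55341 genes tested, with Benjamini-Hochberg adjustment over all genes, and DESeq2 1.42.0 as an alternative. RPKM was computed from these counts and the gene lengths. The script was tested on simulated data. The members and lists were chosen with earlier results of these data known. Named genes are those of the fixed lists, those of the highest Parental -OHT score overall and in 3 patterns of libraries, and the 3 of lowest adjusted p in each direction. Dhx40, Pik3ip1 and Tex12 fall outside that rule. One gene of the fixed lists is not reported here.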

Additional observations from a re-analysis of the deposited data

Results flagged for a closer look

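Several results stood out because the OHT effect itself differed between lines by the edgeR interaction test at the same thresholds. Of genes with a Parental -OHT RYBP promoter peak, 2 had a higher and 97 a lower effect in RING1B WT than in Parental cells, and 18 had a higher effect in RING1B I53S than in RING1B WT cells. Among named genes, the effect in RING1B WT minus that in Parental cells, on the log2 scale, was -4.27 for Hand1, -3.77 for Tdrd1, -3.54 for Ccnd2, -2.98 for Cbx8, -2.85 for Taf7l, -1.87 for Sycp1, -1.72 for Crabp1 and -1.59 for Dppa3. For Ccnd2 the effect in RING1B I53S minus that in RING1B WT cells was 2.75. Each named gene moved by more in Parental than in RING1B WT cells.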

How the results depend on the processing

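Log2 fold changes of listed genes took the other sign under at least 1 alternative for 69 of 489 (163 genes in 3 lines), 68 of them only on leaving out 1 library and 0 of them called in either fit. Of the genes whose fold changes or their differences are given, these were Rybp in RING1B I53S cells (-0.42 to 0.0052 on leaving out 1 library) and, in RING1B WT cells, Yaf2 (-0.065 to 0.13) and Dppa3 (-0.29 to 0.21). Depth is unknown, so no alternative could scale for it. Within each setting, values run Parental -OHT, Parental +OHT, RING1B WT and RING1B I53S where all 4 are given, and Parental +OHT, RING1B WT, RING1B I53S where 3 are. At a score of at least 20 the lists held 531, 18, 156 and 81 peaks over 0.676, 0.0295, 0.178 and 0.0873 Mb with 665, 27, 208 and 115 promoter genes. The promoter share was 90.2% for Parental -OHT and 91.0% for RING1B WT, and peaks with PCGF2 were held at 2.20%, 26.7% and 9.75%. Promoter genes called higher then numbered 177 in Parental, 18 in RING1B WT and 152 in RING1B I53S cells. Those called lower numbered 4 in Parental and 2 in RING1B I53S. These calls are of the main fit, where all genes gave 15.1%, 1.34% and 12.8% higher. Lower calls were 1.83% of all genes in Parental and 1.04% in RING1B I53S cells. The OHT effect was higher in RING1B WT than Parental at 0 and lower at 27, and higher in RING1B I53S than RING1B WT at 3. With that score required in both lists, shared peaks were 1.88%, 24.9% and 12.1%. PCGF2 then lay on 53.5% of Parental -OHT and 44.9% of RING1B WT peaks, PCGF6 on 92.8%, 44.4%, 96.2% and 77.8%, and H2AK119ub1 on 50.8% of Parental -OHT, 67.9% of RING1B WT and 33.3% of RING1B I53S peaks.

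With the 61 top-scoring peaks of each list, median widths were 1315, 970 and 941 bp and median scores 56.3, 39.0 and 27.8 in Parental -OHT, RING1B WT and RING1B I53S. Shared peaks became 16.4%, 68.9% and 45.9%, those with PCGF2 20.0%, 71.4% and 42.9% and those without 11.5%, 65.4% and 50.0%. The order of RING1B I53S by PCGF2 was thus the other way at that size, on too few peaks to settle it. Left out input overlaps gave 0.0326 Mb, 0.839% shared and 0.694% with PCGF2 in Parental +OHT. Requiring 50% of the peak covered gave 0.803%, 27.5% and 14.1% shared, 33.7% and 13.1% with PCGF2 in RING1B WT and RING1B I53S, and 18.8% without in RING1B WT. PCGF6 then lay on 82.9% of Parental -OHT and 59.1% of RING1B I53S peaks and H2AK119ub1 on 41.7%, 68.3% and 44.3% of Parental -OHT, RING1B WT and RING1B I53S peaks. Chromosome 11 and input overlaps were left out after seeing the data. Without chromosome 11, shares were 0.708%, 28.8% and 14.6%, with PCGF2 0.723%, 34.2% and 15.6%, and without PCGF2 0.683% in Parental +OHT and 12.9% in RING1B I53S. Classes by H3K27me3 in place of PCGF2 gave 0.621% with and 2.17% without in Parental +OHT and 16.9% without in RING1B WT. Classes by H2AK119ub1 gave 41.8% and 21.8% with and 16.2% and 12.7% without in RING1B WT and RING1B I53S, and by RING1B 41.97% and 20.99% with and 11.8% and 12.8% without.

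A promoter of 1 kb gave 80.8%, 79.9% and 86.9% of Parental -OHT, RING1B WT and RING1B I53S peaks, and 0 genes with a higher effect in RING1B WT than Parental. Windows of 200 bp held CACGTG in 9.50%, 1.64%, 10.3% and 13.3% and TCCCGCC in 11.1%, 12.6% and 13.2% (Parental -OHT, RING1B WT, RING1B I53S), and windows of 500 bp 20.3%, 23.0% and 25.4% and 26.2%, 27.02% and 28.4%.

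For RNA, the counts below are of RYBP promoter genes, without the share over all genes at the same setting. So they cannot tell a change among members from a change in calls over all genes. A minimum of 10 counts in every library gave 289, 28 and 243 genes called higher in Parental, RING1B WT and RING1B I53S. It gave 8 lower in Parental and 1 in RING1B I53S. Effects were 0 higher and 59 lower in RING1B WT than Parental, and 9 higher in RING1B I53S than RING1B WT. FDR alone gave 154, 6 and 94 lower, and 6 higher in RING1B WT than Parental. No filter beyond 1 count gave 131 higher and 2 lower in RING1B WT, 166 lower in RING1B WT than Parental and 62 higher in RING1B I53S than RING1B WT. DESeq2 gave 44 higher and 1 lower for the last, where all genes gave 121 in either direction. The replicate block gave 4 higher in RING1B WT than Parental, 30 higher and 1 lower in RING1B I53S than RING1B WT, and within 1.5 times for the rest. The labels do not say what the replicate numbers share, and with 2 per line the correlations of deviations were 0.101, 0.0627 and 0.198. Leaving out 1 library at a time gave 672 to 818 genes called higher and 14 to 19 lower in Parental, 7 to 97 and 0 to 4 in RING1B WT, and 529 to 729 and 6 to 11 in RING1B I53S cells. The effect was higher in RING1B WT than Parental at 0 to 3 and lower at 22 to 111, and higher in RING1B I53S than RING1B WT at 1 to 25, where a lone sample is assumed to vary like the other groups.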

Other observations

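Peaks outside the Parental -OHT list numbered 28 in Parental +OHT, 231 in RING1B WT +OHT and 152 in RING1B I53S +OHT cells. Their median scores were 12.9, 11.5 and 11.6, near the calling floor of 10. Of the 231 RING1B WT peaks, 71.9% overlapped a Parental -OHT PCGF6 peak and 66.7% a PCGF2 peak. Of the 152 RING1B I53S peaks, 67.8% overlapped a PCGF6 peak and 25.7% a PCGF2 peak, and 56 lay on chromosome 11. Mtf2, a PRC2 accessory subunit, had a promoter peak in Parental +OHT (13.6) and RING1B I53S +OHT cells (13.97) and in neither of the other libraries. Sycp3 (13.7), Tdrd6 (16.1) and Tex14 (15.1) had one in RING1B WT cells alone.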
